A study of Mus musculus with 15 samples.

Results

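Fibrinogen, coagulation and fibrinolysis genes were followed in the kidneys of a mouse model of TFE3 translocation renal cell carcinoma. The 9 genes are the fibrinogen chain genes Fga, Fgb and Fgg, the factor XIII subunit genes F13b and F13a1, the thrombin receptor gene F2r, the tissue factor gene F3, and the plasminogen activator genes Plat and Plau. They were chosen by symbol and by expression in these kidneys, from the rows annotated with exactly 1 gene symbol, and each of the 9 had 1 such row. They are 9 of 22180 genes measured under a single symbol. The measured value that the choice used, the mean level over the 15 arrays, is given as a description and ran from 4.97 (F13a1) to 10.75 (Plau) on the log2 scale. The members and the gene lists were also chosen with earlier results of these data known. Counts of calls among them, set beside the shares over all genes, are thus a description and not a test.

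All mice carried a Rosa26-LSL-PRCC-TFE3 knock-in, a fusion gene held silent by a loxP-flanked stop cassette. They were crossed with the KSP-Cre line, in which the promoter of Cdh16 (kidney-specific cadherin) drives Cre in tubule epithelium. The 4 groups were PRCC-TFE3; KSP-Cre(-) mice at 4 months (n = 4) and 7 months (n = 3), and PRCC-TFE3; KSP-Cre(+) mice at 4 months (n = 4) and 7 months (n = 4), called Cre- and Cre+ here. No group carried Cre without the fusion, so effects of the fusion and of the Cre transgene cannot be told apart. RNA came from whole flash-frozen kidney, 1 mouse per array, on Affymetrix Mouse Gene 2.0 ST arrays. In such bulk tissue, fewer cells of a type and less RNA per cell cannot be told apart. The values are log2 expression after robust multi-array averaging (RMA), which sets the arrays to a common scale. Differences are on this log2 scale, where 1 unit is a doubling. They were tested with limma over all 22180 genes, and a gene was called where the Benjamini-Hochberg adjusted p was under 0.05. The number of mice limits the precision. Levels of different genes are not compared as amounts of RNA, since probes differ in brightness. Silent genes are read only as a rough guide to the low end of the scale.

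In coagulation, tissue factor starts a cascade of plasma proteases that ends in thrombin. Thrombin cuts fibrinogen, a secreted protein built of paired alpha, beta and gamma chains, into fibrin, and factor XIII cross-links the fibrin. Plasmin, released from plasminogen by tissue plasminogen activator or urokinase, dissolves it again. Hepatocytes are the main source of plasma fibrinogen and raise it in the acute phase response through interleukin-6 and STAT3, while kidney tubule epithelium is known to express fibrinogen chains after injury. Urokinase is made by tubule epithelium and excreted in urine.

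The stretch of 250 bases before the start site is shown for the fibrinogen chain genes and for F13b, the members with the largest changes. The chains rose and F13b fell. The sequences are RefSeq's on GRCm38.p6, written 5′ to 3′ on the gene's strand. Capitals mark CTGGGA, known from the interleukin-6 response elements of fibrinogen genes, and ATTAAC, part of the binding sequence of the hepatocyte and kidney factor HNF1. Both were searched on both strands.
Fgg, chr3:83007474-83007723, plus strand: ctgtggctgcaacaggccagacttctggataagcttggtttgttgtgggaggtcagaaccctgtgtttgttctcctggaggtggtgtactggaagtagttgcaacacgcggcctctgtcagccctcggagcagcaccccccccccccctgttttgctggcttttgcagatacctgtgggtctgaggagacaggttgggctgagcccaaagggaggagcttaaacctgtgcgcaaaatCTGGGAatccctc
Fga, chr3:83025903-83026152, plus strand: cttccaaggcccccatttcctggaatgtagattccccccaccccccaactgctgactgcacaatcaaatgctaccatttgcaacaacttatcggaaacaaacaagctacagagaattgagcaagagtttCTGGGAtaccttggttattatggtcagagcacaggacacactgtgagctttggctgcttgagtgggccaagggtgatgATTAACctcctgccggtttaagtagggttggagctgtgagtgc
Fgb, chr3:83049864-83050113, minus strand: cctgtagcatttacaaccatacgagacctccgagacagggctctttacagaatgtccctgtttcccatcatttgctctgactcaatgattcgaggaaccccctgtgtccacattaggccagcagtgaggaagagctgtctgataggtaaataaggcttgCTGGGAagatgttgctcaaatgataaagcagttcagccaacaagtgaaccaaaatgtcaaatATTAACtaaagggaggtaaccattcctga
F13b, chr1:139501457-139501706, plus strand: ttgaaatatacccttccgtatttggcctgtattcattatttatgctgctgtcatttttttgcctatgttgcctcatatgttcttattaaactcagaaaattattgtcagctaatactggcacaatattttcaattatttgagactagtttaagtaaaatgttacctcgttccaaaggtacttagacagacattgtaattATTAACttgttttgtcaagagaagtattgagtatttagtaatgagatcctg
CTGGGA stood in all 3 fibrinogen windows, with its first base 121 bases before the start site in Fga, 91 bases before it in Fgb and 13 bases before it in Fgg. The letters are short, and 27% of the 32851 promoter windows of this length hold them. Among these were an F13a1 window (chr13:37049214-37049463) and, on the other strand, the F2r window. The other F13a1 window (chr13:37050245-37050494) did not hold them. ATTAAC began 43 bases before the start site in Fga, 29 bases before it in Fgb and 51 bases before it in F13b, and 6.43% of all windows hold it. TTCNNNGAA, the STAT letters, occurred in Fga and Fgb (7.02% of all windows), as did TTGCNNAA, the C/EBP letters (9.56%). CACGTG, an E-box form bound by TFE3 and its relatives, was in none of the member windows searched, against 6.02% of all windows. The promoter table matched 7 of the 9 genes, all but Plat and Plau. No CTGGGA overlapped a TTCNNNGAA in these windows, and a match of letters is a description and not a site of binding.

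Before the members, the labels were set against the data. Gpnmb, a lysosomal glycoprotein gene known as a TFE3 target, lay between 4.05 and 4.69 in the 7 Cre- kidneys and between 10.21 and 12.37 in the 8 Cre+ kidneys, so every array fell on the side of its label. Tfe3 differed between Cre+ and Cre- by 0.03 at 4 months and 0.22 at 7 months, and Prcc by 0.09 and -0.25, none of them called, and these mouse probes need not read the fusion. The tubule genes Lrp2 and Umod stood between 10.60 and 12.25 in every kidney. The mean of the Y-linked genes split the arrays into 8 with a high level (6.92 to 7.80) and 7 with a low level (2.64 to 2.98), and each group held both. Xist, which should be silent in the 8 high-Y arrays, read 3.35 to 3.93 there. In the 7 low-Y arrays Kdm5d read 2.60 to 3.22, Uty 2.47 to 2.80 and Eif2s3y 2.53 to 3.45. These readings show roughly where the low end of the scale lies, which differs by probe. Whether Fga, Fgb and F13a1 stood above background in Cre- kidneys was not measured by a detection call here, and a fold taken from values this low may be understated.

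Fibrinogen chain transcripts were higher in Cre+ kidneys at 7 months, by 12.2-fold for Fgb, 11.8-fold for Fgg and 3.47-fold for Fga. At 4 months Fgg alone of the 3 was called, at 2.86-fold. The differences at 7 months exceeded those at 4 months in all 3 chains by a test of the difference itself. F13b went the other way, 5.06-fold lower at 7 months.

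Fgg, which encodes the gamma chain that platelets and leukocytes bind, read 5.43, 5.91, 5.51 and 5.70 in the 4-month Cre- kidneys and 6.63, 7.25, 7.55 and 7.18 in the 4-month Cre+ kidneys. At 7 months it read 6.18, 5.88 and 6.14 without Cre and 9.93, 9.80, 9.92 and 8.86 with Cre. The groups did not overlap at either age, and the fourth 7-month Cre+ kidney stood about 1 unit under the others of its group. The difference was 1.52 ± 0.22 (SE) at 4 months (limma adjusted p = 0.00048) and 3.56 ± 0.24 at 7 months (adjusted p = 2.06e-08). Its growth between the ages was 2.05 ± 0.32 (adjusted p = 0.00463). All 3 calls held in each of the 15 fits that left out 1 array. In order of level, both Cre- groups came first, with means of 5.64 ± 0.21 (SD, n = 4) at 4 months and 6.06 ± 0.16 (n = 3) at 7 months that did not differ by the test (0.43, adjusted p = 1). They were followed by 4-month Cre+ at 7.15 ± 0.38 and 7-month Cre+ at 9.63 ± 0.51.

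Fgb, the beta chain gene, whose transcript is often taken as the limiting one for fibrinogen assembly in liver, read 4.07, 5.25, 4.38 and 4.88 in 4-month Cre- kidneys and 5.07, 6.10, 6.36 and 6.23 in 4-month Cre+ kidneys. At 7 months the values were 5.14, 4.36 and 4.10 without Cre and 8.17, 7.81, 9.16 and 7.41 with Cre. The first 4-month Cre+ kidney lay inside the Cre- range, while at 7 months the lowest Cre+ kidney stood more than 2 units above every Cre- kidney. The difference of 1.30 ± 0.36 at 4 months missed the threshold (adjusted p = 0.0567). It passed in 5 of the 15 fits that left out an array, those without 4-month Cre- replicate 2, 4-month Cre+ replicate 1, 7-month Cre- replicate 1, and 7-month Cre+ replicates 3 and 4 (adjusted p from 0.0143 to 0.0488). The difference of 3.61 ± 0.39 at 7 months was called (adjusted p = 3.94e-06). The 2 low-Y arrays of the 4-month Cre- group (5.25 and 4.88) and the single one of the 7-month Cre- group (5.14) were above all 4 high-Y Cre- arrays (4.07 to 4.38), a split seen after the values and not tested. The 4-month Cre+ kidney inside the Cre- range (5.07) was a high-Y array and also lay above those 4. With the Y-linked level as a covariate the 4-month difference was 1.28 ± 0.29 and was called (limma adjusted p = 0.0132).

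Fga, the alpha chain gene, read 4.30, 4.64, 4.57 and 4.64 in 4-month Cre- kidneys and 4.74, 4.96, 5.17 and 5.10 in 4-month Cre+ kidneys. At 7 months it read 4.49, 4.37 and 4.56 without Cre and 6.31, 6.38, 6.90 and 5.48 with Cre. The groups did not overlap at either age, and the fourth 7-month Cre+ kidney was the lowest of its group, as it was for Fgg and Fgb. The 4-month difference of 0.46 ± 0.21 was not called (adjusted p = 0.281), and its 95% interval ran from 0.02 to 0.89. The 7-month difference of 1.80 ± 0.22 was called (adjusted p = 1.56e-05).

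The growth of the difference between the ages was 2.31 ± 0.53 for Fgb (limma adjusted p = 0.0313) and 1.34 ± 0.30 for Fga (adjusted p = 0.0297). These 2 calls were less secure than that of Fgg. Fga missed the threshold in 6 of 15 fits with 1 array left out, those without 4-month Cre- replicate 2 or 4, 4-month Cre+ replicate 1, 7-month Cre- replicate 1 or 2, or 7-month Cre+ replicate 2 (adjusted p from 0.0525 to 0.08). Fgb missed it in 5, those without 4-month Cre- replicate 2 or 4, 4-month Cre+ replicate 1, or 7-month Cre- replicate 2 or 3 (adjusted p from 0.0598 to 0.082). Among the 9 genes 4 were called for such a change, 3 upward and F13b downward, against 2.14% of all genes (0.960% upward and 1.18% downward), and leaving out 4-month Cre- replicate 2 or 4, 4-month Cre+ replicate 1 or 7-month Cre- replicate 2 left 2.

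**Figure D1:**
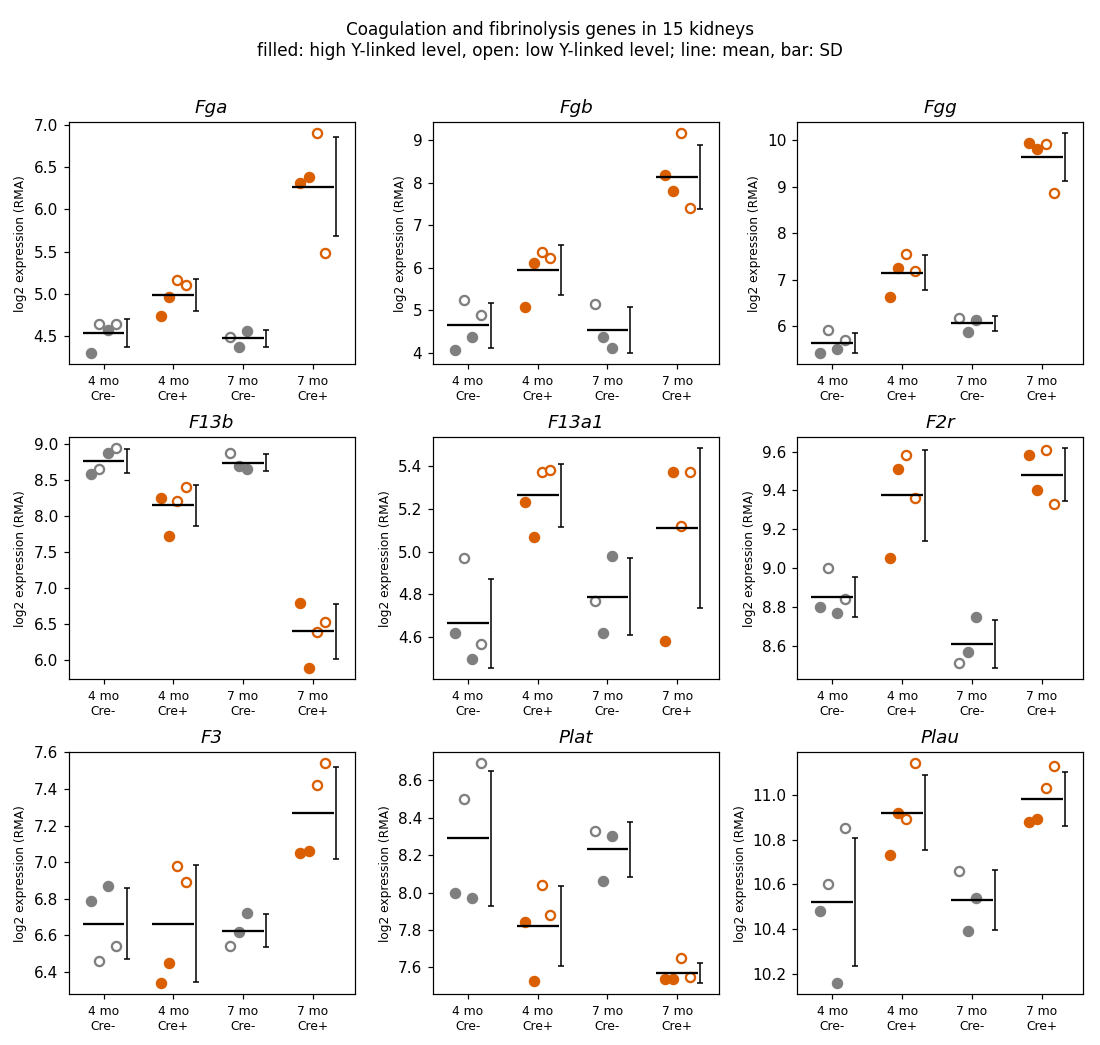
Log2 expression of each of the 9 genes in each of the 15 kidneys, by group; points are mice, filled for a high and open for a low Y-linked level, lines are group means and bars are SD, and each panel has its own axis. The 7-month Cre+ kidneys stand highest for Fga, Fgb and Fgg, with Fgg at 8.86 to 9.93, and lowest for F13b, at 5.89 to 6.80.

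The fibrinogen genes lie side by side on chromosome 3 in the order Fgg, Fga, Fgb, with 0 protein-coding genes between them in the annotation. Of the measured genes next to them, Npy2r, Rbm46 and Lrat on one side and Plrg1 and Dchs2 on the other, none was called at 4 months. At 7 months Lrat, a retinol esterification enzyme gene, was lower by a narrow call (-0.62, adjusted p = 0.0497). Plrg1, next to Fgb, differed by 0.30 (adjusted p = 0.135). Over the 15 arrays the chains correlated with one another at Pearson r = 0.96 to 0.97, as a description over arrays that share the group differences.

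F13b encodes the B subunit that carries and protects the factor XIII catalytic subunit in plasma. It read 8.59, 8.65, 8.87 and 8.94 in 4-month Cre- kidneys and 8.25, 7.73, 8.21 and 8.40 in 4-month Cre+ kidneys. The 7-month values were 8.87, 8.70 and 8.66 without Cre and 6.80, 5.89, 6.39 and 6.53 with Cre. All Cre+ kidneys lay under all Cre- kidneys of their age, by a wide gap at 7 months. The 4-month difference of -0.62 ± 0.17 missed the threshold (limma adjusted p = 0.0577), and it passed without 7-month Cre+ replicate 1 or 2 (0.0416 and 0.0238), arrays outside the comparison that enter only the shared estimate of spread. The 7-month difference was -2.34 ± 0.18 (adjusted p = 1.63e-07), and it was larger than that at 4 months by -1.72 ± 0.25 (adjusted p = 0.00372), a call kept in all 15 fits with an array left out. In order of level, 7-month Cre+ (6.40 ± 0.38) was lowest, then 4-month Cre+ (8.15 ± 0.29), and the Cre- groups (8.74 ± 0.12 and 8.76 ± 0.17) did not differ by the test (-0.02, 95% interval from -0.41 to 0.37).

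F13a1, the catalytic A subunit, made in blood by platelets and in tissue by macrophages, read 4.62, 4.97, 4.50 and 4.57 in 4-month Cre- kidneys and 5.23, 5.07, 5.37 and 5.38 in 4-month Cre+ kidneys. The values at 7 months were 4.77, 4.62 and 4.98 without Cre and 4.58, 5.37, 5.12 and 5.37 with Cre. At 4 months the groups did not overlap, and at 7 months the first Cre+ kidney lay below all 3 Cre- kidneys. The 4-month difference of 0.59 ± 0.16 was called by a narrow margin (limma adjusted p = 0.0498). That call stood in 4 of the 15 fits with an array left out, those without 4-month Cre- replicate 2 or 7-month Cre+ replicate 1, 2 or 4, and in the other 11 the adjusted p was 0.051 to 0.155. The 7-month difference of 0.32 ± 0.17 was not called (adjusted p = 0.216), and without 7-month Cre+ replicate 1 it was 0.50 and called (adjusted p = 0.0219). The change of the difference between the ages was -0.27 ± 0.24 (adjusted p = 0.603), so a different response at the ages was not shown. Both factor XIII subunit genes were thus measured in the same kidneys, with differences of opposite sign at each age.

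F2r encodes PAR1, the receptor that thrombin switches on by cutting it, present on endothelium, mesenchymal cells and some epithelia. It read 8.80, 9.0, 8.77 and 8.84 in 4-month Cre- kidneys and 9.05, 9.51, 9.58 and 9.36 in 4-month Cre+ kidneys. The 7-month Cre- kidneys read 8.51, 8.57 and 8.75, and the Cre+ kidneys of that age read 9.58, 9.40, 9.61 and 9.33. Every Cre+ kidney lay above every Cre- kidney of either age. The difference was 0.52 ± 0.12 at 4 months (limma adjusted p = 0.0188) and 0.87 ± 0.13 at 7 months (adjusted p = 8.02e-05), folds of 1.43 and 1.83. The 4-month call was lost without 4-month Cre- replicate 1 or 3 or 4-month Cre+ replicate 2 or 3 (adjusted p from 0.063 to 0.077). The growth of 0.35 ± 0.17 was not called (adjusted p = 0.336). The Cre+ groups did not differ in level by the test (9.37 ± 0.23 and 9.48 ± 0.14, adjusted p = 0.589).

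F3 encodes tissue factor, the membrane receptor of factor VII that starts coagulation and which in kidney is best known from glomerular epithelium. In 4-month kidneys it read 6.79, 6.46, 6.87 and 6.54 without Cre and 6.34, 6.45, 6.98 and 6.89 with Cre. In 7-month kidneys it read 6.54, 6.62 and 6.72 without Cre and 7.05, 7.06, 7.42 and 7.54 with Cre. The 4-month groups had the same mean of 6.66, with a wider range in Cre+ kidneys (6.34 to 6.98) than in Cre- kidneys (6.46 to 6.87), and at 7 months all Cre+ kidneys lay above all Cre- kidneys. The 4-month difference was -0.0024 (95% interval from -0.33 to 0.32, limma adjusted p = 0.996), and the 7-month difference was 0.64 ± 0.17 (adjusted p = 0.00923), a 1.56-fold higher level. The change between the ages, 0.65 ± 0.23, was not called (adjusted p = 0.164).

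Within the 4-month kidneys, F3 ran in opposite directions by Y-linked level. The high-Y kidneys read 6.79 and 6.87 without Cre and 6.34 and 6.45 with Cre, and the low-Y kidneys 6.46 and 6.54 without Cre and 6.98 and 6.89 with Cre. Neither pair of ranges overlapped. The Cre difference was -0.44 in high-Y arrays (limma adjusted p = 0.0768) and 0.43 in low-Y arrays (adjusted p = 0.0967). The difference between these, a comparison chosen after seeing the data, was 0.87 ± 0.18 (unadjusted p = 0.000234), and it failed adjustment over all genes (adjusted p = 0.0988), where 13 genes passed. At 7 months it was 0.56 ± 0.20 (adjusted p = 0.454), with the low-Y Cre+ kidneys (7.42 and 7.54) again above the high-Y ones (7.05 and 7.06). No member passed this test at either age, and for the members other than F3 the adjusted p ran from 0.558 to 0.996.

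Plat encodes tissue plasminogen activator, the fibrin-bound activator made by endothelium and by tubule and glomerular cells. It read 8.0, 8.50, 7.97 and 8.69 in 4-month Cre- kidneys and 7.84, 7.53, 8.04 and 7.88 in 4-month Cre+ kidneys. The 7-month values were 8.33, 8.06 and 8.30 without Cre and 7.54, 7.54, 7.65 and 7.55 with Cre. The 4-month groups overlapped, and at 7 months the Cre+ kidneys lay close together under all Cre- kidneys. The difference of -0.47 ± 0.15 at 4 months was not called (limma adjusted p = 0.111), and that of -0.66 ± 0.16 at 7 months was (adjusted p = 0.00658), a 1.58-fold lower level. With the Y-linked level as a covariate the 4-month difference was -0.47 ± 0.12 and was called (limma adjusted p = 0.0307). Between the ages the difference changed by -0.19 ± 0.22 (adjusted p = 0.721).

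Plau encodes urokinase. It read 10.48, 10.60, 10.16 and 10.85 in 4-month Cre- kidneys and 10.73, 10.92, 10.89 and 11.14 in 4-month Cre+ kidneys. At 7 months the kidneys without Cre read 10.66, 10.39 and 10.54, and those with Cre 10.88, 10.89, 11.03 and 11.13. One 4-month Cre- kidney (10.85) reached into the Cre+ range, and the 7-month groups did not overlap. The difference was 0.40 ± 0.13 at 4 months, not called (limma adjusted p = 0.122), and it passed without that kidney, replicate 4 (adjusted p = 0.0419). At 7 months it was 0.46 ± 0.14, called at 1.37-fold (adjusted p = 0.0294), and it was lost without 7-month Cre- replicate 2 or 3 or Cre+ replicate 3 or 4 (adjusted p from 0.0616 to 0.129). The 2 plasminogen activator genes thus moved in opposite directions at 7 months.

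**Figure D2:**
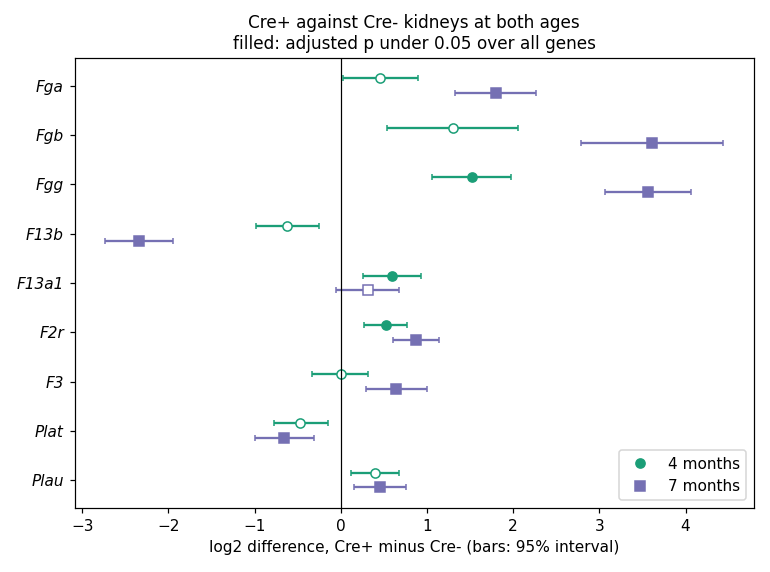
Log2 difference of Cre+ from Cre- kidneys for each gene at 4 months (circles) and 7 months (squares), with 95% intervals; filled marks passed an adjusted p of 0.05 over all genes. Fgb and Fgg reach 3.61 and 3.56 at 7 months and F13b reaches -2.34, while the 4-month interval of F3 runs from -0.33 to 0.32.

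Counted over the 9 genes, 3 were called at 4 months, all higher (Fgg, F13a1 and F2r), against 3.53% of all genes called at that age, 2.73% higher and 0.803% lower. The count was 1 without 4-month Cre- replicate 1 or 3 or 4-month Cre+ replicate 2 or 3. Groups did not overlap for 5 of the 9, against 9.46% of all genes. At 7 months 8 were called, 6 higher and 2 lower (F13b and Plat), against 22.5% of all genes, 11.7% higher and 10.8% lower, and the same count of 8 did not overlap, against 29.2%. The median difference over the 9 was 0.46 at 4 months and 0.64 at 7 months, beside 0.05 and -0.04 over all genes. As the 9 were chosen with earlier results of these data known, these counts and medians do not test the members against all genes. At 4 months the split of all calls depended on the scaling: 606 genes were called higher and 178 lower as deposited, and 492 and 435 after each array was centred on its median.

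Age alone was compared within each genotype, with arrays that also enter the Cre comparisons. In Cre- kidneys 0 of the 9 genes were called by limma between 7 and 4 months, with 0 at an unadjusted p under 0.05 and 0 by the linear model without moderation, and 1 gene (0.00451%) was called in all. F2r was the single member whose Cre- ages did not overlap (8.51 to 8.75 at 7 months and 8.77 to 9.0 at 4 months), against 3.94% of all genes. In Cre+ kidneys 5 were called, 4 higher and 1 lower at 7 months, against 10.8% of all genes (4.12% higher and 6.71% lower). Fgg was higher at 7 months by 2.48 ± 0.22, Fgb by 2.20 ± 0.36, Fga by 1.27 ± 0.21 and F3 by 0.61 ± 0.15 (limma adjusted p = 8.71e-06, 0.000856, 0.000789 and 0.0185), while F13b was lower at -1.74 ± 0.17 (adjusted p = 1.86e-05). The same 5 were those whose ages did not overlap in Cre+ kidneys (16.8% of all genes). The F3 call was lost without 4-month Cre+ replicate 1 or 2 or 7-month Cre+ replicate 3 or 4 (adjusted p from 0.0563 to 0.0629). F13a1, F2r, Plat and Plau differed between the ages in Cre+ kidneys by -0.15, 0.11, -0.25 and 0.06, none of them called.

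The other genes of the system were read from a list of 45, of which 39 had a row with a single symbol. At 7 months 8 of the 39 were called higher and 5 lower, against 11.7% and 10.8% of all genes, so the share called lower was near the background. At 4 months 3 were called higher and 0 lower, against 2.73% and 0.803% of all genes. That direction depended on the Y-linked level, in groups of 2 arrays. Within high-Y arrays 1 was called higher and 4 lower at 4 months, and within low-Y arrays 2 higher and 1 lower. The list medians of 0.05 at 7 months and 0.11 at 4 months stood beside -0.04 and 0.05 over all genes. At an unadjusted p under 0.05 the 4-month counts were 9 higher and 2 lower, and a linear model without moderation called 1 higher and 0 lower. For the change of the Cre difference between the ages, 0 of the 39 were called by limma and 0 by the model without moderation, with 3 higher and 2 lower at an unadjusted p under 0.05.

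Among the protease inhibitors, Serpina10, the protein Z-dependent inhibitor of factor Xa, was the one with a difference as large as those of the fibrinogen chains. It read 3.94, 5.11, 4.36 and 4.77 in 4-month Cre- kidneys and 5.80, 6.30, 7.21 and 6.99 in 4-month Cre+ kidneys. At 7 months it read 4.87, 4.87 and 4.66 without Cre and 8.56, 8.22, 8.52 and 8.01 with Cre. The groups did not overlap at either age. The difference was 2.03 ± 0.27 at 4 months (limma adjusted p = 0.000202) and 3.53 ± 0.29 at 7 months (adjusted p = 2.56e-07), 11.5-fold. Serpinc1, antithrombin, was lower at 7 months by a small amount at the low end of the scale (-0.57, adjusted p = 0.022). Serping1, the C1 inhibitor, which also inhibits the contact pathway proteases, rose by 0.74 ± 0.18 at 7 months (adjusted p = 0.00464), and it is named here after its value was seen. Serpinf2, alpha2-antiplasmin, differed by -1.95 ± 0.70 at 7 months and missed the threshold (adjusted p = 0.0539). It split by Y-linked level in both genotypes. Cre- kidneys read 9.70 to 9.99 in high-Y and 7.70 to 7.79 in low-Y arrays. Cre+ kidneys read 8.99 and 8.97 against 7.49 and 7.81 at 4 months, and 8.31 and 8.07 against 5.73 and 6.51 at 7 months. The 7-month Cre- group held 2 high-Y arrays and 1 low-Y array, and the Cre+ group 2 of each, so the 7-month difference also carries that imbalance.

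Of the anticoagulant protein C pathway, Proc, protein C itself, fell. It read 8.49, 8.93 and 8.81 in 7-month Cre- kidneys and 7.44, 6.99, 6.20 and 6.62 in 7-month Cre+ kidneys, a difference of -1.93 ± 0.28 (limma adjusted p = 6.19e-05), after -0.53 at 4 months (adjusted p = 0.315). The 4-month Cre- kidneys split by Y-linked level, at 9.04 and 9.08 in high-Y and 7.95 and 8.21 in low-Y arrays. The 4-month Cre+ kidneys read 8.27 and 7.93 in high-Y and 7.99 and 7.96 in low-Y arrays. This split was seen after the values and not tested. Pros1, its cofactor protein S, rose by 0.85 ± 0.17 at 7 months (adjusted p = 0.00113). Thbd, thrombomodulin, the endothelial receptor that turns thrombin to protein C, differed by 0.33 (adjusted p = 0.11). F5, the cofactor of factor Xa, read 7.80, 6.46 and 6.87 in 7-month Cre- kidneys and 5.25, 4.92, 5.06 and 5.73 in 7-month Cre+ kidneys, a fall of -1.80 ± 0.31 (adjusted p = 0.000358). Its 4-month difference of -0.92 ± 0.29 was not called (adjusted p = 0.0973). F5 also split by Y-linked level, seen after the values and not tested. Cre- kidneys read 7.62, 7.63 and 7.80 in low-Y and 7.15, 7.26, 6.46 and 6.87 in high-Y arrays. The 4-month Cre+ kidneys read 6.63 and 7.23 against 6.31 and 5.81, and at 7 months the Cre+ levels overlapped. The 7-month difference thus also carries the imbalance of Y-linked level. F10, factor X, was lower by a smaller amount at 7 months (-0.49, adjusted p = 0.024), as was Vkorc1, the vitamin K reductase (-0.44, adjusted p = 0.016). F2, prothrombin, differed by 0.20 at 7 months (adjusted p = 0.511), at 3.86 to 4.49 in all 7 kidneys of that age. At 4 months F2 differed by 0.57 ± 0.17, with groups that did not overlap, and was not called (adjusted p = 0.0815). Tfpi, the inhibitor of tissue factor, differed by -0.34 (adjusted p = 0.381). Without 7-month Cre+ replicate 3 the 7-month count of lower calls was 3, as F10 and Serpinc1 missed the threshold. Serpinc1 and Vkorc1 also missed it without 7-month Cre- replicate 3, and F10 without 7-month Cre- replicate 1 or 2 or Cre+ replicate 1.

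On the plasmin side, the annexin II pair that binds plasminogen and tissue plasminogen activator at the cell surface rose. Anxa2 was higher by 0.64 ± 0.16 at 4 months (limma adjusted p = 0.0276) and 1.48 ± 0.17 at 7 months (adjusted p = 6.81e-06), and its partner S100a10 by 0.53 ± 0.13 (adjusted p = 0.0326) and 1.04 ± 0.14 (adjusted p = 4.17e-05). Both 4-month calls were lost without 4-month Cre- replicate 1 or 3 or 4-month Cre+ replicate 3 or 4, where the list's count of higher calls at 4 months fell to 1. That of S100a10 was also lost without 4-month Cre- replicate 2 or 4-month Cre+ replicate 2. Plaur, the urokinase receptor, rose by 0.82 ± 0.16 at 7 months (adjusted p = 0.00116). Masp1, a complement protease that also acts on prothrombin and fibrinogen, was called at 0.75 with overlapping groups (adjusted p = 0.0232), a call lost without 7-month Cre- replicate 1 or 2. Plg, plasminogen, read between 3.19 and 4.04 in all 15 kidneys and was not called at either age (0.26 and 0.08). These values lie at the low end of the scale, where a change may not show.

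**Figure D3:**
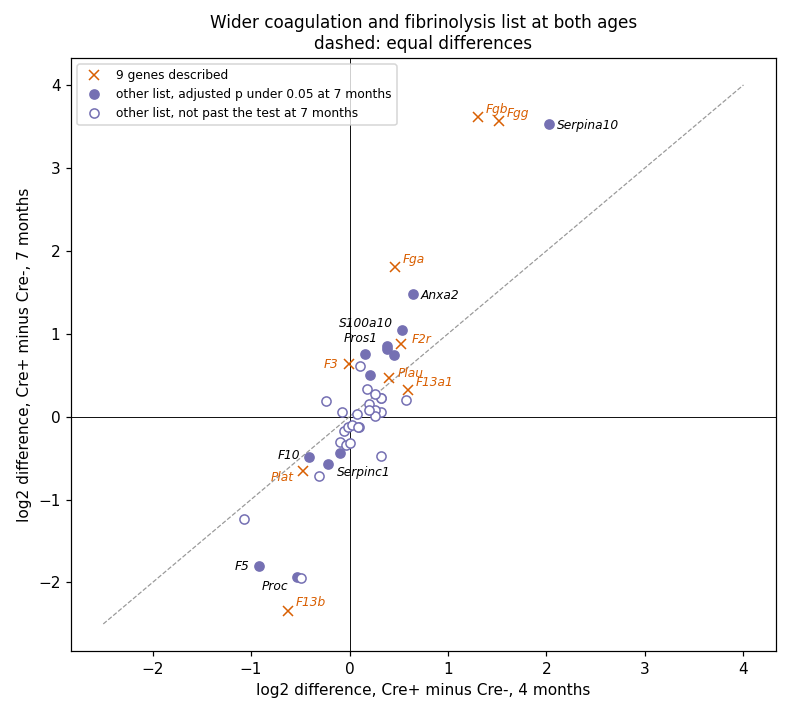
Log2 difference of Cre+ from Cre- kidneys at 4 months (horizontal) and 7 months (vertical) for the 9 genes (crosses) and the 39 others of the list (circles, filled where the 7-month difference passed the test); each point is a gene and the dashed line marks equal differences. Serpina10 lies beside Fgb and Fgg at 2.03 and 3.53, and Proc and F5 lie beside F13b, while most other genes cluster near 0.

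Some marker lists of other cell types moved with these groups, and their part in the results was not tested. Over all genes 11.7% were called higher and 10.8% lower at 7 months, and 2.73% and 0.803% at 4 months. Of 12 measured hepatocyte genes 0 were called higher at either age, also at an unadjusted p under 0.05 and without moderation, and 3 were called lower at 7 months, Alb by -1.47, Ttr by -1.14 and Apoa2 by -0.70. Its mean per array was 5.02 to 5.18 in 7-month Cre- kidneys and 4.61 to 4.78 in 7-month Cre+ kidneys, and Cps1, a defining liver enzyme gene, read 3.48 to 4.17 in all 15 kidneys. Of 5 measured platelet and megakaryocyte genes 0 were called by limma at either age, 1 was higher at 4 months and 2 lower at 7 months at an unadjusted p under 0.05, and 1 was called lower at 7 months without moderation, with a mean per array of 4.70 to 4.94 and 4.46 to 4.72 at 7 months. The macrophage and monocyte list rose, with 5 of 12 genes called higher at 4 months and 12 of 12 at 7 months, where its mean went from 5.68 to 6.15 in Cre- kidneys to 7.31 to 7.69 in Cre+ kidneys.

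Several kidney lists moved as well, beside the same shares of all genes. All 11 proximal tubule genes were called lower at 7 months and 3 at 4 months, with list means of 11.14 to 11.20 in 7-month Cre- and 9.60 to 10.14 in 7-month Cre+ kidneys. Of the 9 tubule injury genes 8 rose at 7 months, with list means of 5.63 to 5.82 and 7.35 to 7.71, and of 10 mesenchyme genes 6 rose (6.82 to 7.32 and 8.15 to 8.36). Of 8 thick ascending limb genes 4 were lower at 7 months and 0 higher, and of 6 podocyte genes 4 were lower (6.24 to 6.61 and 5.70 to 6.07). For 10 endothelial genes the 7-month counts were 2 lower and 0 higher (7.92 to 8.07 and 7.38 to 7.98), and for 7 principal cell genes 1 higher and 0 lower. Counts this small do not set the endothelial and principal cell lists apart from the shares over all genes. The lists that moved did so in the same kidneys as the 9 genes. Their part in the differences of F13b, F3, Plat or the fibrinogen chains was not tested.

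Genes of the acute phase and the interleukin-6 family, the known inducers and companions of liver fibrinogen, were read from a list of 15, of which 13 were measured. At 7 months 7 were called higher and 0 lower, against 11.7% and 10.8% of all genes, led by Lbp (2.05 ± 0.18, limma adjusted p = 5.89e-07) and Orm2 (2.01 ± 0.22, adjusted p = 4.94e-06), both secreted acute phase proteins. Osmr, the oncostatin M receptor subunit, rose by 1.13, Stat3 by 1.12 and Socs3, the feedback inhibitor that STAT3 induces, by 0.97, and Il6ra and Lif by 0.67 and 0.44. The 6 not called at 7 months included the acute phase genes Saa2 (-0.09), Saa3 (0.14), Orm1 (-0.03) and Hp, haptoglobin (0.06), together with Il6 (-0.01) and the shared receptor subunit gene Il6st (0.02). At 4 months Socs3 (0.65, adjusted p = 0.00643) and Stat3 (0.55, adjusted p = 0.042) were called. Il6 itself read 2.10 to 2.66 in all 15 kidneys, the low end of the scale, and Hp read 5.31 to 6.67. The list mean was 4.97 to 5.30 in 7-month Cre- and 5.69 to 5.89 in 7-month Cre+ kidneys.

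**Figure D4:**
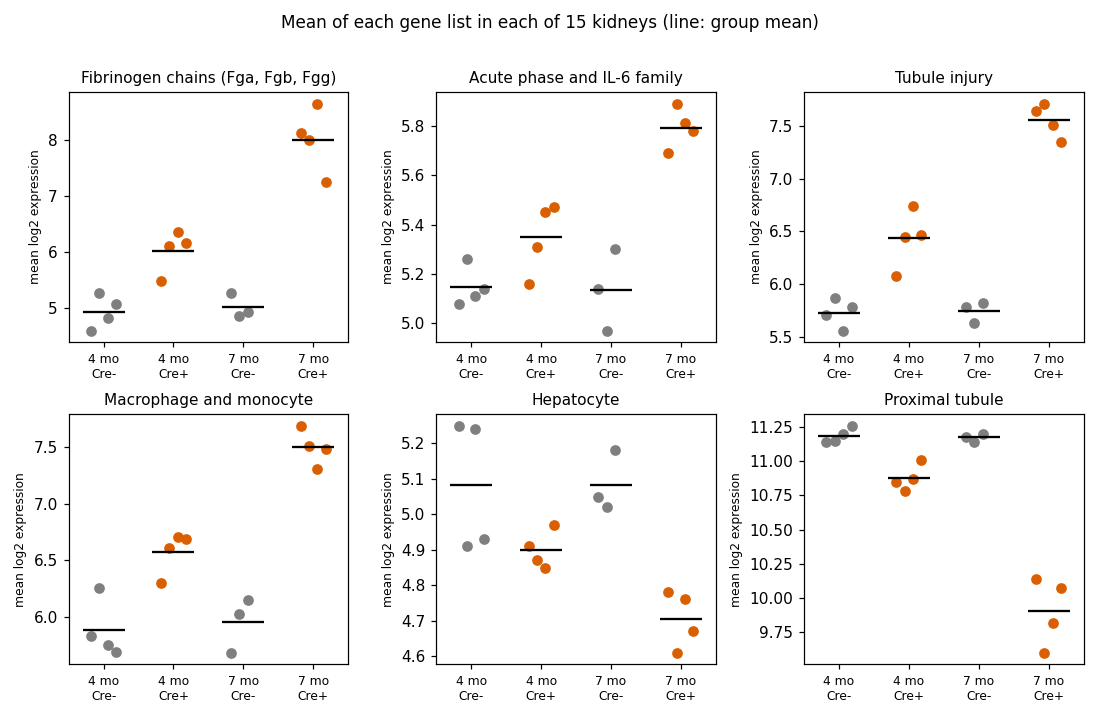
Mean log2 level per kidney of the fibrinogen chains and of 5 gene lists (acute phase and IL-6 family, tubule injury, macrophage and monocyte, hepatocyte, proximal tubule), by group; points are mice and lines are group means, each panel with its own axis. At 7 months the hepatocyte mean is 4.61 to 4.78 in Cre+ and 5.02 to 5.18 in Cre- kidneys, and the fibrinogen mean stands higher in every Cre+ kidney than in any Cre- kidney of that age.

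The genes whose level followed each member most closely over the 15 arrays were found among 19281 genes by Pearson correlation, given as a description over arrays that share the group differences. For Fgg these were Slc34a2, a sodium phosphate cotransporter gene (r = 0.99), Klf6 and H2-DMa; for Fgb Cldn1, a claudin of tight junctions (0.98), Slc34a2 and Sorcs2; and for Fga Gpc3, a glypican (0.98), H2-DMa and Slc34a2. Slc34a2 was thus among the closest 3 for every fibrinogen chain. F13b ran with Tmem139, Tcn2, the vitamin B12 carrier, and Prss8, the protease prostasin (all 0.99). F2r ran with Kitl, the ligand of KIT (0.97), Snhg1 and Lhfp. Plat ran with Paqr5 (0.96), Cgnl1 and Tfdp2, and Plau with Sh3bgrl, Laptm4b and Tspan12 (all 0.96). F3 (Mir100hg at 0.92, Acly and Cbr3) and F13a1 (Kcng3 at 0.87, Rab25 and Il1f9) had the weakest closest genes.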

How the data were processed

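Kidney RNA of 15 mice was measured on 15 arrays, 1 per mouse. Per the series' design text, the authors normalised the arrays by RMA in Partek Genomics Suite 6.6 and deposited 1 log2 value per probe set and array. No label or header used here names a genome build. The deposited table has 41345 rows and no missing value, from 1.04 to 13.12, with array medians of 4.4 to 4.55. Of its rows 23521 carry 1 gene symbol in the platform annotation, 1814 several and 16010 none; symbols were updated through the Entrez identifier for 23328 rows. Where a gene had several rows, the row of highest mean was used, which gave 22180 genes.

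limma 3.58.1 in R 4.3.3 (lmFit with 4 group means over all 15 arrays, eBayes, two-sided) gave differences, and p-values were adjusted over all 22180 genes by Benjamini-Hochberg. The script was tested on simulated data. The mice of a group are the replicates. Alternatives were a filter on dim genes, quantile normalisation, median centring, other variance models, fits of the compared groups only, array weights, the Y-linked level, other rows per gene, the replicate number as a block, and each array left out in turn. The sex of the mice is not in the labels used, so arrays were split by the level of Y-linked genes. Scan dates were not in the files used, so no batch was tested.

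All 9 genes were named in every comparison. Of the list of 45 others, genes past the threshold were named, up to 6 in each direction by size, and up to 6 more for their role. For each member the 3 genes of highest Pearson correlation were named, leaving out predicted genes and the other members. The members and all lists were chosen with earlier results of these data known. Replicate numbers come from the sample titles. Deviations from group means of same-numbered arrays correlated between -0.47 and 0.30. Only between the Cre+ ages did every pair exceed 0.1 (0.17, 0.22, 0.30 and 0.28). The sign followed the Y-linked level, with 0.17 to 0.30 in pairs of the same level and -0.47 to -0.06 in pairs of opposite level. Same-numbered Cre+ arrays share that level at both ages, so the correlations do not show that the numbers pair arrays. The numbers were still used as a block, as an alternative. In a fit of the Cre+ arrays alone, the block changed no member's call.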

Additional observations from a re-analysis of the deposited data

Results flagged for a closer look

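In 27 sets of 4 arrays (9 genes in 3 groups) a sample's gap to its nearest neighbour was set against Dixon's 95% critical value, which chance passes in about 5% of such sets, and 2 were past it. Fgg in 7-month Cre+ replicate 4 read 8.86, below 9.80 to 9.93 in the other 3 kidneys. Plat in 7-month Cre+ replicate 3 read 7.65, above 7.54 to 7.55 in the others, a gap of small size.

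The Cre difference changed between 4 and 7 months by the test of the change itself for 4 genes. It grew by 1.34 for Fga, by 2.31 for Fgb and by 2.05 for Fgg, and for F13b it changed by -1.72, toward a lower level.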

How the results depend on the processing

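The 7-month calls of Fga, Fgb, Fgg, F13b, F2r, F3 and Plat held under all 28 alternatives run, as did the 4-month call of Fgg. Plau at 7 months held under 21 of 28, F2r at 4 months under 21 of 28 and F13a1 at 4 months under 9 of 28. At 4 months the number of members called, 3, became 5 with the filter on dim genes, 5 with array weights, 7 with the Y-linked level as a covariate and 1 within the high-Y arrays, and ran from 1 to 4 with an array left out. The number called for a change of the Cre difference between the ages, 4, became 2 in the linear model without moderation, 2 with all rows tested, 1 within high-Y arrays and 0 within low-Y arrays, and ran from 2 to 4 with an array left out. The causes were not tested, beyond that the splits by Y-linked level leave 1 or 2 arrays a group. Where a subgroup holds 1 array, it is assumed to vary like the others. The fit of the compared groups only was not run for the change between ages, which uses all 4 groups.

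Signs turned only for differences that were not called. F3 at 4 months was 0.05 with array weights and 0.43 in low-Y arrays, and ran from -0.11 to 0.11 with an array left out. The change of the Plau difference was -0.08 in high-Y arrays and ran from -0.05 to 0.17 with an array left out. Between the ages in Cre+ kidneys, leaving out an array gave -0.24 to 0.02 for F13a1 and -0.0044 to 0.13 for Plau. Between the ages in Cre- kidneys, high-Y arrays gave 0.03 for Fga, 0.01 for Fgb and 0.19 for Plat. Low-Y arrays gave 0.07 for Fgb, 0.08 for F13b, -0.0042 for F13a1, 0.04 for F3 and -0.07 for Plau. Plau was -0.00089 with centring and -0.01 with weights, and F13b 0.0049 with the Y-linked covariate. Leaving out an array gave -0.42 to 0.11 for Fgb, -0.09 to 0.04 for F13b, -0.11 to 0.03 for F3, -0.17 to 0.07 for Plat and -0.11 to 0.11 for Plau.

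With the replicate number as a block in all 15 arrays, 3 members were called at 4 months, 8 at 7 months, 3 for the change, 5 between Cre+ ages and 0 between Cre- ages. F13b was then called at 4 months (-0.62, limma adjusted p = 0.0222), while F13a1 at 4 months (0.59, adjusted p = 0.0601) and the change of Fgb (2.33, adjusted p = 0.0558) were not. Under the block the change of the Plau difference was -0.02, and between Cre- ages F13b was 0.04 and F3 0.0043.

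Counts over all genes moved by over 1.5 times in places. At 4 months 784 genes were called, and 472 with all rows tested, 478 within low-Y arrays and as few as 469 with an array left out. At 7 months 4991 were called, and 3109 within low-Y arrays. For the change between ages 475 were called, and 734 with the Y-linked covariate, 227 without moderation, 173 with all rows tested, 88 and 69 within low-Y and high-Y arrays, and as few as 225 with an array left out. Between Cre+ ages 2402 were called, and 1531 with all rows tested, 1170 within low-Y and 1135 within high-Y arrays. Between Cre- ages the single call was lost under 15 alternatives.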
